A study of Mus musculus with 12 samples.

Results

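The 31 genes described here encode enzymes and carriers of fatty acid oxidation and ketone body metabolism in mouse liver. They were taken by name from a fixed list and were all found in both count tables, among 20093 genes listed in both. By site, 19 act in mitochondria, 10 in peroxisomes and 2 in the ketone body steps. RNA was sequenced from 12 liver samples of male C57BL/6N mice carrying floxed alleles of Elavl1 (HuR flox/flox), the gene of the RNA-binding protein HuR, aged 4 to 6 months per the labels, which describe no other treatment. The 3 chow WT and 3 HFCF WT samples came from mice injected with AAV8-Tbg-null, a virus without Cre. The 3 chow HuRHep-/- and 3 HFCF HuRHep-/- samples came from mice given AAV8-Tbg-Cre, in which the hepatocyte promoter Tbg drives Cre, so that other liver cells keep the allele. Chow groups ate normal chow, and HFCF groups ate for 16 weeks a diet rich in fructose (20% of its energy), fat (40% of its energy) and cholesterol (2%). The study's methods describe an albumin-Cre cross of younger mice instead, and whether the mice had been fasted is not given in the sources used here.

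In hepatocytes, long-chain fatty acids are activated to acyl-CoA, carried across the inner mitochondrial membrane as acylcarnitine, and shortened there in repeated rounds of dehydrogenation, hydration, a further dehydrogenation and thiolysis. Peroxisomes run a parallel pathway on very long and branched chains and pass shortened products on to mitochondria. Much of the acetyl-CoA formed in fasting liver becomes ketone bodies, and the nuclear receptor PPAR alpha is the best known transcriptional activator of both pathways.

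Elavl1 itself went against the labels. Its level was 30.9, 29.3 and 30.99 CPM, read counts scaled to the size of the library, in chow WT and 42.8, 39.2 and 38.8 CPM in the livers labelled chow HuRHep-/-, and 23.9, 24.2 and 26.98 against 32.4, 32.2 and 34.2 CPM under HFCF. It was thus higher in every liver labelled HuRHep-/- than in any WT liver of the same diet (log2 fold change 0.41 ± 0.068 SE in chow and 0.38 ± 0.072 SE in HFCF, limma adjusted p = 0.0219 and 0.0327). Counts over the whole gene do not separate the floxed part from the rest, so the label is used below as given and every direction between genotypes rests on it. Total counts per library ran from 30071731 to 35949203. The summed level of 8 hepatocyte markers, all detected, was 88020 to 108604 CPM in chow WT, 72298 to 80209.8 CPM in labelled chow HuRHep-/-, 64151 to 68520.2 CPM in HFCF WT and 58179 to 63566 CPM in labelled HFCF HuRHep-/-. Most of it was Alb, and the other 7 markers, summed after the values were seen, took 24589 to 29374 CPM, 22839.8 to 26880.4 CPM, 19851 to 22312 CPM and 17493 to 19877 CPM in the same order, so that the genotypes overlapped in both diets, under HFCF only just. Apob, among these 7, was called lower under HFCF (2906, 2741 and 2939 against 2079, 2137 and 1974 CPM, log2 fold change -0.49 ± 0.095 SE, limma adjusted p = 0.0355). That of 8 Kupffer cell and macrophage markers, none at 0 throughout, was 144 to 185 CPM, 203 to 299.7 CPM, 219.5 to 355 CPM and 305 to 505 CPM in the same order, and that of 5 cholangiocyte markers was 35.1 to 78.8 CPM, 47.0 to 77.3 CPM, 38.6 to 87.3 CPM and 133 to 241 CPM. Stellate cell markers, 8 in number, summed to 176 to 199 CPM, 138 to 199.8 CPM, 179 to 352 CPM and 332 to 393 CPM. Markers of T, B and NK cells (7) summed to 2.60 to 4.38 CPM, 3.32 to 4.49 CPM, 2.41 to 3.85 CPM and 5.51 to 6.897 CPM, and those of neutrophils (4 of 5 in both tables) to 1.83 to 2.51 CPM, 1.91 to 3.19 CPM, 2.17 to 3.30 CPM and 4.23 to 5.49 CPM, both apart between genotypes under HFCF. Adipocyte markers (3 of 4 in both tables) summed to 3.36 to 5.26 CPM, 2.23 to 3.62 CPM, 33.7 to 177 CPM and 99.9 to 117 CPM. Nearly all of this sum was Cidec, which was higher under HFCF in both genotypes. Adipoq reached at most 0.0611 CPM and Plin1 at most 0.135 CPM in any library, so the sum describes Cidec and not adipocyte markers as a class. Endothelial markers (7) lay between 95.3 and 126 CPM in all 12 libraries. The part of these marker levels in the results below was not tested, and in whole liver fewer hepatocytes and less RNA per hepatocyte cannot be told apart.

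The 31 members together took 10179 to 11037 CPM in chow WT, 9041 to 9589 CPM in labelled chow HuRHep-/-, 12404 to 13252 CPM in HFCF WT and 10294 to 10878 CPM in labelled HFCF HuRHep-/-. The mitochondrial sum was 6389, 6098 and 6413 CPM in chow WT and 5663, 5930.4 and 6137 CPM in labelled chow HuRHep-/-, ranges that overlapped narrowly. Under HFCF it was 6477, 6508 and 6505 CPM in WT and 5228, 5455 and 5863 CPM in the labelled livers, without overlap. The peroxisomal sum was 3830.2, 3526 and 3989 against 2831, 3044 and 2804 CPM in chow and 6029, 5141 and 5628 against 4280.4, 4146 and 4172 CPM under HFCF, and the genotypes were apart in both diets. Acaa1b carried most of the higher sum under HFCF. Without it, a sum formed after the values were seen, the other 9 members took 2290.1 to 2525 CPM in chow WT and 2381 to 2665 CPM in HFCF WT, which overlapped, and 2053 to 2175 CPM in labelled chow and 1948 to 2103 CPM in labelled HFCF livers, which also overlapped. The genotypes stayed apart in both diets without it. For the ketone steps the genotypes overlapped in chow, and under HFCF the labelled livers, at 786, 781 and 842 CPM, lay just above WT at 746, 756 and 774 CPM.

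**Figure D1:**
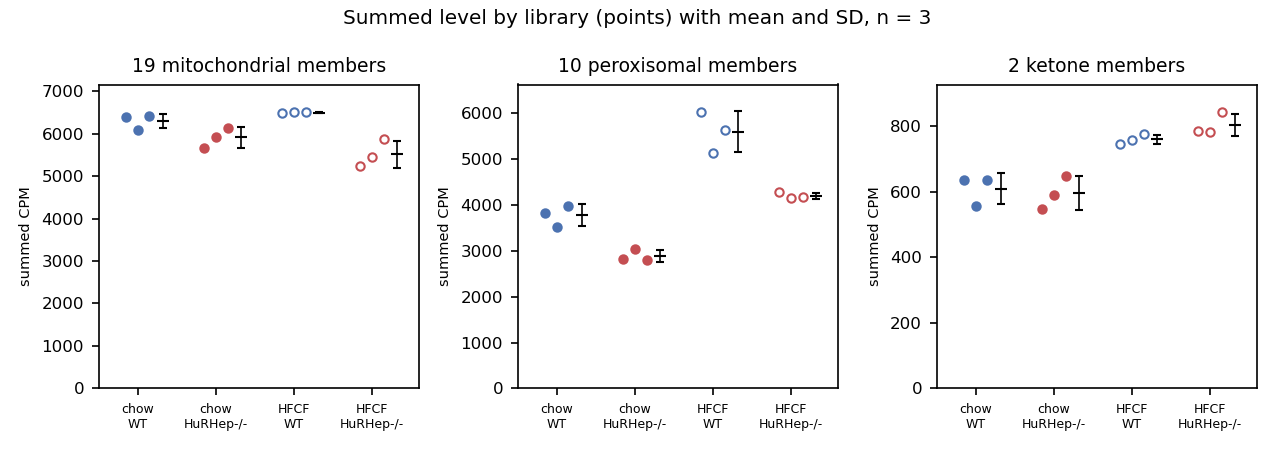
Summed CPM (vertical axis, from 0) of the 19 mitochondrial, 10 peroxisomal and 2 ketone members in each library (points, filled for chow and open for HFCF) with the mean and SD of 3 libraries. The peroxisomal sum is lower in livers labelled HuRHep-/- than in WT of the same diet and higher under HFCF than in chow of the same genotype, with no overlap in either case, and the difference between diets, unlike that between genotypes, is not seen without Acaa1b.

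Members spanned a wide range of levels. The length used was that of all annotated exons of a gene merged over its transcripts, so levels per length and their order depend on the annotation. Per kilobase of exon length, Acaa1b, a peroxisomal thiolase gene, reached a mean of 704 CPM per kb in chow WT, 399 in labelled chow HuRHep-/-, 1555 in HFCF WT and 1108 in labelled HFCF HuRHep-/-. Its closest neighbour in this order was Acaa2, the mitochondrial thiolase gene, at 740.4, 651, 638 and 568 CPM per kb, which ranked above Acaa1b in both chow groups and below it in both HFCF groups. At the other end stood Abcd2, a peroxisomal fatty acyl transporter gene, at 1.33 to 3.39 CPM per kb over the 4 group means.

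The first comparison asked which members differ between livers labelled HuRHep-/- and WT on chow. Of 31 members, 4 were called lower and 0 higher at an adjusted p of at most 0.05, where 1.94% of 13526 genes tested were called lower and 2.29% higher. At an unadjusted p below 0.05, 8 members were lower and 2 higher, beside 11.4% and 12.2% of all genes, and weighting by voom in limma gave the same counts of 4 and 0. The 4 were Slc25a20, Eci1, Ehhadh and Acaa1b, and the last pair also passed a fold change of 1.5. The median log2 fold change over the members was -0.07, with 22 negative and 9 positive, against 0.005 over all genes. Leaving out chow WT replicate 1 or 3 or labelled HuRHep-/- replicate 1 or 2 left 1 member called lower, Ehhadh, and leaving out either of the remaining libraries gave 5. Calls over all genes fell too in the 4 fits that left 1 member, from 310 higher and 262 lower to between 4 and 70 higher and between 5 and 66 lower. In these 6 fits the median over the members ran from -0.08 to -0.04, the latter without labelled HuRHep-/- replicate 1.

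Under HFCF, the same contrast called 8 members lower and 0 higher, where 3.95% and 2.85% of 14295 genes were called in these directions. They were Acsl1, Slc25a20, Eci1, Abcd3, Pex11a, Acaa1b, Decr2 and Eci2, with Acsl1, Slc25a20 and Pex11a past the fold of 1.5. At an unadjusted p below 0.05 there were 18 lower and 1 higher, beside 15% and 14.5% of all genes, and voom again gave 8 and 0. The median over the members was -0.21, with 29 negative and 2 positive, against -0.002 over all genes. With upper-quartile scaling the split over all genes moved from 407 higher and 564 lower to 421 and 370, and 5 members were called lower. No call held in every fit that left out a library, and the count fell to 0 without HFCF WT replicate 1, without labelled HuRHep-/- replicate 1 or without its replicate 2, and to 3 without its replicate 3. Calls over all genes fell alike in these 4 fits, to between 8 and 29 higher and between 20 and 88 lower, while the median over the members stayed between -0.19 and -0.23 in all 6 such fits.

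Across both diets, the 3 genes called lower in each were Slc25a20, Eci1 and Acaa1b, which is 75.0% of the 4 and 37.5% of the 8. Over all genes, 124 were called lower in both diets, out of 262 called lower in chow and 564 under HFCF. These 124 are 0.923% of 13437 genes tested in both, beside 3 of the 31 members. Judged by library values alone, 9 members in chow and 17 under HFCF had every labelled HuRHep-/- liver below every WT liver, beside 14.5% and 17.5% of all tested genes. For the opposite direction the counts were 3 and 1, beside 14.8% and 18.7%. Lower without overlap in both diets were 8 members (88.9% of the 9 and 47.1% of the 17), namely Slc25a20, Hadha, Eci1, Decr1, Etfb, Abcd3, Pex11a and Acaa1b. Over all genes, 917 were lower without overlap in both diets, out of 1959 in chow and 2500 under HFCF. These 917 are 6.82% of the genes tested in both, beside 8 of the 31 members. Averaged over both diets in 1 fit of 12 libraries, which pools these same livers, 15 members were called lower and 2 higher, beside 10.3% and 8.96% of 14535 genes.

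**Figure D2:**
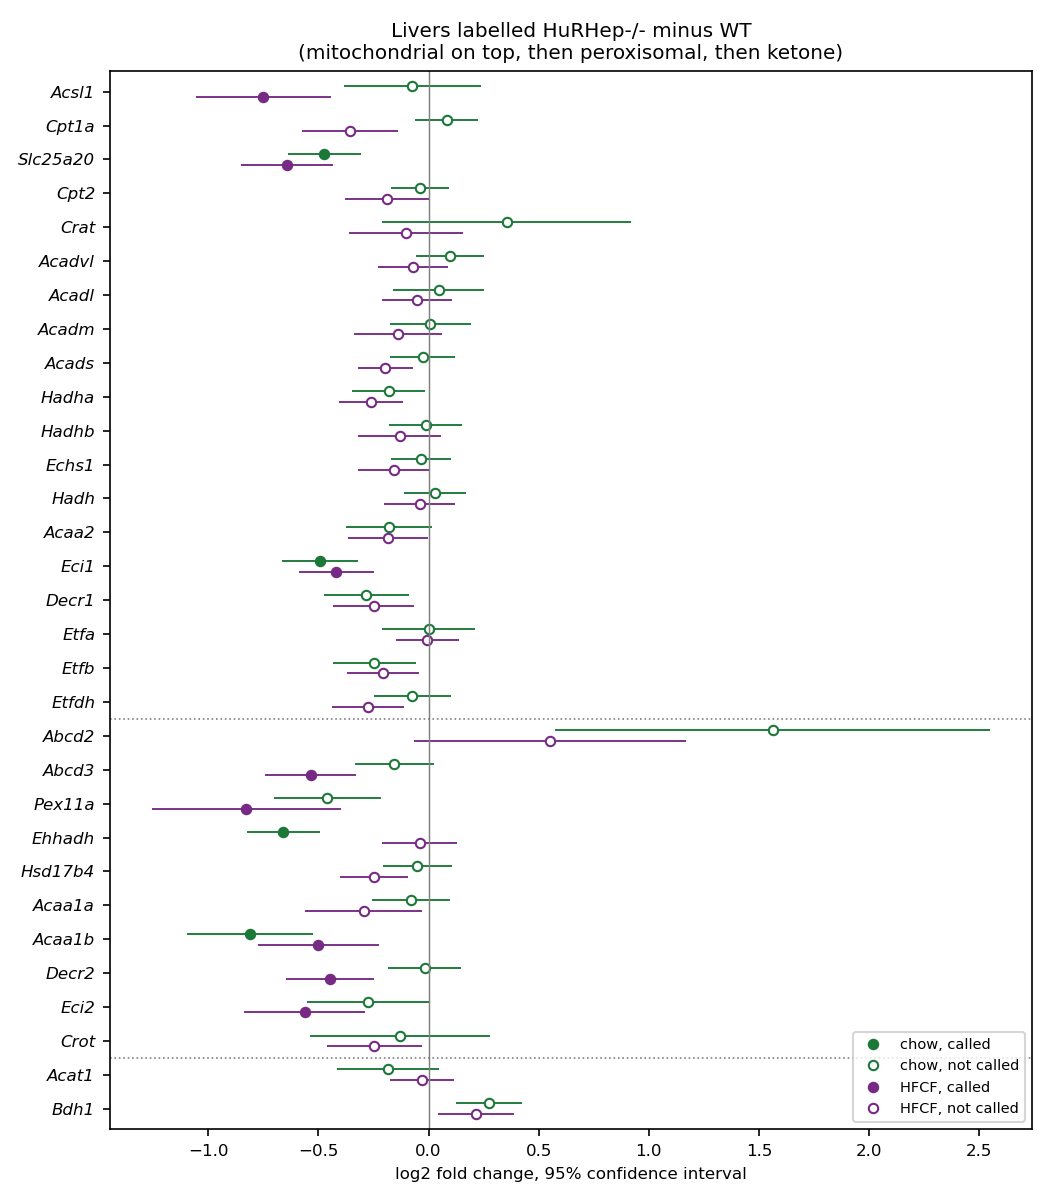
Log2 fold change of each of the 31 members (horizontal axis) in livers labelled HuRHep-/- relative to WT, in chow (green) and under HFCF (purple), each from 3 against 3 libraries, with 95% confidence intervals and filled points where the adjusted p was at most 0.05. Filled points lie left of 0 throughout, 4 in chow and 8 under HFCF, and Abcd2 has the widest interval.

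Among genes of activation and the carnitine shuttle, Slc25a20, which encodes the carnitine/acylcarnitine translocase of the inner membrane, was lower in both diets. Its level was 149, 132 and 144 CPM in chow WT and 94.8, 106 and 104 CPM in labelled chow HuRHep-/-. Under HFCF it was 168, 141 and 166 CPM in WT and 96.5, 101 and 109 CPM in the labelled livers. All 6 labelled livers thus lay below all 6 WT livers, whatever the diet. The log2 fold change was -0.47 ± 0.072 (SE) in chow and -0.64 ± 0.089 (SE) under HFCF, with limma adjusted p = 0.0183 and 0.0189. Each call for Slc25a20 held in 2 of 6 fits that left out a library. Of its transcript's 31-base words, 15.6% also occur in other annotated genes. The gene lies on the plus strand at chr9:108662088-108684641 of GRCm38.

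The window from 250 bases before to 50 after the RefSeq start of Slc25a20 (chr9:108661886-108662185, plus strand, GRCm38.p6) is shown because the gene was called in both diets and the window holds a match, in capitals, to a direct repeat of AGGTCA with any 1 base between the copies, the kind of element to which PPAR alpha with its partner RXR binds. With up to 2 mismatches allowed and both strands searched, 3 of 28 RefSeq windows of 25 members held such a match (10.7%), beside 3.86% of 32851 windows of all genes.
Slc25a20 promoter: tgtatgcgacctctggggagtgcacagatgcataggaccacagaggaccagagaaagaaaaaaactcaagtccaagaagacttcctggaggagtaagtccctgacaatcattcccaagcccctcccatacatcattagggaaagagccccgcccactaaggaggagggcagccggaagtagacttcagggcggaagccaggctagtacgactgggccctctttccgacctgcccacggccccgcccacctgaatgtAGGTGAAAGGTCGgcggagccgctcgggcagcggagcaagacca
In this gene the match begins 6 bases past the start, on the plus strand of the window, and reads AGGTGAAAGGTCG. The other two windows were those of Echs1 (AGGTCACGGGTCC) and Etfa (AGGGCAAAGGTAA), neither of which was called between genotypes in either diet. A match is a description of the letters and not a measured site.

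Acsl1, the main long-chain acyl-CoA synthetase gene of liver, differed under HFCF and not detectably in chow. Chow WT livers had 706, 998 and 811 CPM and labelled chow HuRHep-/- livers 713, 830.5 and 817 CPM, with WT replicate 2 the highest and the groups overlapping (-0.07 ± 0.13 SE, interval -0.38 to 0.24). In HFCF livers the values were 939, 978 and 959.9 CPM for WT and 503, 536 and 710.4 CPM for the labelled livers, of which replicate 3 stood nearest to WT. This gave a log2 fold change of -0.75 ± 0.13 (SE, limma adjusted p = 0.0282), called in 3 of 6 fits that left out a library. Cpt1a, the gene of the outer-membrane carnitine palmitoyltransferase that controls entry of fatty acids, read 426, 461 and 475 CPM in HFCF WT and 333, 342 and 406 CPM in the labelled HFCF livers, apart but not called (-0.36 ± 0.093 SE, limma adjusted p = 0.0635). Cpt2 and Crat overlapped between genotypes in both diets.

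The 4 acyl-CoA dehydrogenases that start each round, Acadvl, Acadl, Acadm and Acads for very long to short chains, were not called between genotypes in either diet, with log2 fold changes from -0.03 to 0.10 in chow and from -0.20 to -0.05 under HFCF. The genotypes were apart without a call for a pair of them. Acadvl was 438, 395 and 437 CPM in chow WT and 439.6, 449.9 and 460.3 CPM in labelled chow livers (0.10 ± 0.067 SE, limma adjusted p = 0.423). Acads was 205, 208 and 208 CPM in HFCF WT and 185, 182 and 181 CPM in labelled HFCF livers (-0.20 ± 0.053 SE, limma adjusted p = 0.0682).

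The mitochondrial trifunctional protein joins the hydratase and dehydrogenase subunit encoded by Hadha to the thiolase subunit encoded by Hadhb, and the 2 genes sit head to head on chromosome 5 with RefSeq starts 273 bases apart. Hadha was 354, 332 and 350.4 CPM in chow WT and 279.7, 312 and 320.0 CPM in labelled chow livers, and 344, 341 and 345 against 276, 293 and 299.8 CPM under HFCF, lower without overlap both times. It was called only when both diets were averaged (log2 fold change -0.22 ± 0.046 SE, limma adjusted p = 0.00788). Hadhb overlapped between genotypes in both diets and was not called on average (-0.07 ± 0.056 SE, interval -0.19 to 0.05). The ratio of Hadha to Hadhb CPM, chosen after these values were seen, was 1.38, 1.5 and 1.43 in chow WT and 1.22, 1.32 and 1.29 in labelled chow livers. Under HFCF it was 1.41, 1.51 and 1.35 in WT and 1.33, 1.32 and 1.25 in labelled livers, so every labelled liver lay below every WT liver of its diet. The mean log2 difference within diets was -0.15, given as a description with no test, since the ratio was chosen for this pattern.

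For the remaining spiral enzymes, Acaa2, the mitochondrial thiolase for medium and long chains, was 994, 983 and 924 CPM in HFCF WT and 823, 864 and 896 CPM in labelled HFCF livers, and was called on average over diets (-0.18 ± 0.056 SE, limma adjusted p = 0.0457, past the threshold in 4 of 12 fits that left out a library). Echs1, the short-chain hydratase, did not overlap under HFCF (-0.16 ± 0.070 SE, limma adjusted p = 0.186). Hadh, the short-chain dehydrogenase, overlapped in both diets, with an averaged change of -0.001 and an interval of -0.10 to 0.09.

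Unsaturated fatty acids need extra isomerase and reductase steps, and here both mitochondrial genes were lower in the labelled livers. Eci1, an enoyl-CoA isomerase, was 159.9, 134 and 156 CPM in chow WT and 106, 105 and 107 CPM in labelled chow livers. Under HFCF it was 168, 145 and 159 CPM in WT and 116, 117 and 124 CPM in labelled livers. No labelled liver of either diet reached the lowest WT liver. The log2 fold changes were -0.49 ± 0.074 and -0.42 ± 0.073 (SE), with limma adjusted p = 0.0183 and 0.0282. Each call for Eci1 held in 2 of 6 fits that left out a library. Decr1, the 2,4-dienoyl-CoA reductase, was 264, 231 and 248 against 183, 207 and 219 CPM in chow and 273, 248 and 264 against 206, 223 and 239 CPM under HFCF, and was called on average (-0.26 ± 0.059 SE, limma adjusted p = 0.0112).

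Electrons from the acyl-CoA dehydrogenases pass through the electron transfer flavoprotein, made of the products of Etfa and Etfb, to its oxidoreductase, encoded by Etfdh. Etfb was 416, 353 and 395 CPM in chow WT and 304, 327 and 345 CPM in labelled chow livers, and 299, 319 and 298 against 253, 265 and 285 CPM under HFCF. Etfdh was 222, 222 and 198 CPM in HFCF WT and 178, 181 and 176 CPM in labelled HFCF livers, with WT replicate 3 nearest to the labelled livers. Averaged over diets, Etfb was lower (-0.22 ± 0.055 SE, limma adjusted p = 0.0168), as was Etfdh (-0.17 ± 0.051 SE, limma adjusted p = 0.038), the latter in 3 of 12 fits that left out a library. Etfa did not differ detectably (0.002 ± 0.056 SE, interval -0.12 to 0.12). The Etfa to Etfb ratio, also picked after the values were seen, was 0.989, 0.991 and 1.06 in chow WT and 1.25, 1.13 and 1.24 in labelled chow livers, and 1.22, 1.15 and 1.16 against 1.4, 1.37 and 1.29 under HFCF. It was higher in each labelled liver than in any WT liver of the same diet (mean log2 difference 0.22, likewise with no test). Of the 31-base words of the Etfb transcript, 68.0% are shared with other annotated genes, mostly the overlapping same-strand gene Gm45233, so its counts are uncertain.

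**Figure D3:**
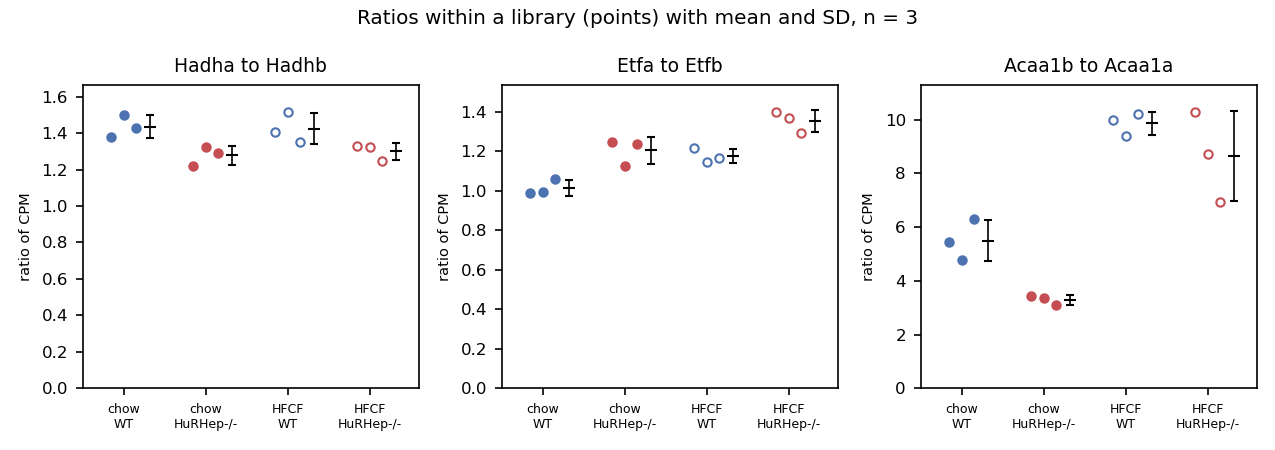
Ratio of CPM within each library (vertical axis, from 0) for 2 subunit pairs and 1 paralog pair, in 4 groups of 3 libraries (points, filled for chow and open for HFCF) with mean and SD. Hadha to Hadhb lies lower, and Etfa to Etfb higher, in livers labelled HuRHep-/- than in WT of the same diet, whereas Acaa1b to Acaa1a separates the genotypes in chow and overlaps under HFCF.

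At the peroxisomal membrane, Abcd3 encodes an importer of fatty acyl-CoA and Pex11a a protein of peroxisome division. Abcd3 was 455, 474 and 494 CPM in chow WT and 389, 441 and 445 CPM in labelled chow livers, apart by a small gap and not called (-0.16 ± 0.077 SE, limma adjusted p = 0.265). Under HFCF it was 537, 461 and 455 CPM in WT and 339, 351 and 321 CPM in labelled livers (-0.54 ± 0.088 SE, limma adjusted p = 0.0245). The labelled HFCF livers were the lowest of all 12 for this gene, and the call held in 2 of 6 fits that left out a library. Pex11a was 119, 104 and 128 against 76.8, 81.4 and 96.8 CPM in chow (-0.46 ± 0.10 SE, limma adjusted p = 0.0537, short of a call). Under HFCF its values were 186, 132 and 206 CPM in WT, the widest spread of the 4 groups, and 84.4, 95.5 and 116 CPM in labelled livers. This was the largest decrease among the members in that diet (-0.83 ± 0.18 SE, limma adjusted p = 0.0449), called in 1 of 6 fits that left out a library.

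Abcd2, which encodes a related importer, moved the other way. It was 7.28, 3.28 and 13.2 CPM in chow WT and 21.2, 21.7 and 17.6 CPM in labelled chow livers, higher without overlap but not called in chow alone (1.56 ± 0.43 SE, limma adjusted p = 0.0836). Under HFCF 10.7, 6.38 and 13.00 CPM in WT overlapped with 16.5, 11.7 and 15.01 CPM in labelled livers. Averaged over diets it was called higher (1.06 ± 0.28 SE, limma adjusted p = 0.0236). Chow WT replicate 2, with 98 counts, was the lowest library. The call was lost in 4 of 12 fits that left out a library, those without labelled chow replicate 1 or 2, HFCF WT replicate 2 or labelled HFCF replicate 1, where the adjusted p rose to at most 0.0563.

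Within the peroxisomal spiral, Ehhadh encodes the L-bifunctional hydratase and dehydrogenase, a classical PPAR alpha target. It was 265, 257 and 274 CPM in chow WT and 165, 181 and 157 CPM in labelled chow livers, a clear gap. Under HFCF, 329, 303 and 339 CPM in WT and 335, 316 and 304 CPM in labelled livers overlapped. The log2 fold change was -0.66 ± 0.071 (SE, limma adjusted p = 0.00756) in chow, called in 6 of 6 fits that left out a library, and -0.04 ± 0.073 (SE, interval -0.21 to 0.13) under HFCF. Hsd17b4, the D-bifunctional enzyme of the same step, did not overlap under HFCF, at 474, 459 and 491 against 394, 421 and 398 CPM (-0.25 ± 0.065 SE, limma adjusted p = 0.0647), and was called on average (-0.14, limma adjusted p = 0.0443) in 3 of 12 fits that left out a library.

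Acaa1b and Acaa1a encode the peroxisomal 3-ketoacyl-CoA thiolases B and A. Acaa1b was 1305, 1236 and 1602 CPM in chow WT and 778, 869 and 700.3 CPM in labelled chow livers. Under HFCF it was 3364, 2760.2 and 3027 CPM in WT and 2332, 2122 and 2069.7 CPM in labelled livers. The genotypes were apart in both diets, and every HFCF liver lay above every chow liver. The log2 fold change between genotypes was -0.81 ± 0.12 in chow and -0.50 ± 0.12 under HFCF (SE), with limma adjusted p = 0.0184 and 0.0498, the latter at the edge of the threshold and past it in 1 of 6 fits that left out a library and in 2 of 7 with another setting. In chow, the call for Acaa1b held in 2 of 6 fits that left out a library. Acaa1a was 239.7, 259 and 254 against 226, 258 and 226 CPM in chow and 336, 294 and 297 against 227, 243 and 298 CPM under HFCF, overlapping in both. The transcripts share sequence, with 45.7% of the 31-base words of Acaa1b and 21.4% of those of Acaa1a found elsewhere, mostly in each other, so reads may be split between them.

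The ratio of Acaa1b to Acaa1a CPM, picked after the values were seen, was 5.45, 4.77 and 6.29 in chow WT and 3.45, 3.36 and 3.1 in labelled chow livers, without overlap. It was 10.01, 9.38 and 10.2 in HFCF WT and 10.3, 8.72 and 6.95 in labelled HFCF livers, which overlapped. Within diets the mean log2 difference was -0.47, again with no test. Both genes lie on chromosome 9, Acaa1b at chr9:119148023-119157093 on the minus strand and Acaa1a at chr9:119339676-119350299 on the plus strand. Their RefSeq start windows (chr9:119157044-119157343 and chr9:119341044-119341343, GRCm38.p6, each read along its gene) are set side by side because these paralogs differ widely in CPM, with the first 50 transcribed bases in capitals.
Acaa1b promoter: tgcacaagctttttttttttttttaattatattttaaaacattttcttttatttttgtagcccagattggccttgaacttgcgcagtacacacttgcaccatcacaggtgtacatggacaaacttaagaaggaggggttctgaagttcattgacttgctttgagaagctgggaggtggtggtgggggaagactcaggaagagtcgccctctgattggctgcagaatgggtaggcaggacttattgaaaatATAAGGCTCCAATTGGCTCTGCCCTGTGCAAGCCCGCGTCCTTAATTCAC
Acaa1a promoter: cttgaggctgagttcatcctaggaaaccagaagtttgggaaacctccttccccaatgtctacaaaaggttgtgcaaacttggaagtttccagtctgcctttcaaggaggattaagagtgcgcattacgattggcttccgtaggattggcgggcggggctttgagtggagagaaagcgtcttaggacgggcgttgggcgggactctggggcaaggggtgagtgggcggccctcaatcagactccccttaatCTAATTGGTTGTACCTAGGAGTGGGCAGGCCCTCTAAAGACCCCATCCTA
Aligned end to end they were identical at 49.4% of columns, and neither held the direct repeat under the rule given for Slc25a20.

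Over the 12 libraries, the members whose log2 CPM ran most like that of Acaa1b were Ehhadh (Pearson r = 0.94), Acads (0.88) and Hadh (0.85). For Abcd2, the member with the largest fold change, they were Acadl (0.48), Crat (0.37) and Bdh1 (0.35). These values describe libraries that share groups, diets and depth, and carry no test.

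Both peroxisomal auxiliary genes for unsaturated chains were lower in the labelled livers under HFCF. Decr2, the peroxisomal dienoyl-CoA reductase, was 239, 222 and 231 CPM in HFCF WT and 159, 164 and 192 CPM in labelled HFCF livers (-0.45 ± 0.085 SE, limma adjusted p = 0.0335), while in chow the groups overlapped (-0.02, interval -0.18 to 0.15). Eci2, the peroxisomal enoyl-CoA isomerase, was 220.3, 227 and 231 CPM in HFCF WT and 138, 143 and 188 CPM in the labelled livers (-0.56 ± 0.12 SE, limma adjusted p = 0.0392), with chow groups that overlapped (-0.27). Of 6 fits under HFCF that left out a library, Decr2 was called in 3 and Eci2 in 1. Eci2 shares 17.0% of its 31-base words with other genes. Crot, the carnitine octanoyltransferase that readies shortened chains for export, overlapped in both diets, at 520.5, 368 and 347 against 438, 373 and 307 CPM in chow and 332, 277 and 337 against 255, 279 and 270.4 CPM under HFCF.

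**Figure D4:**
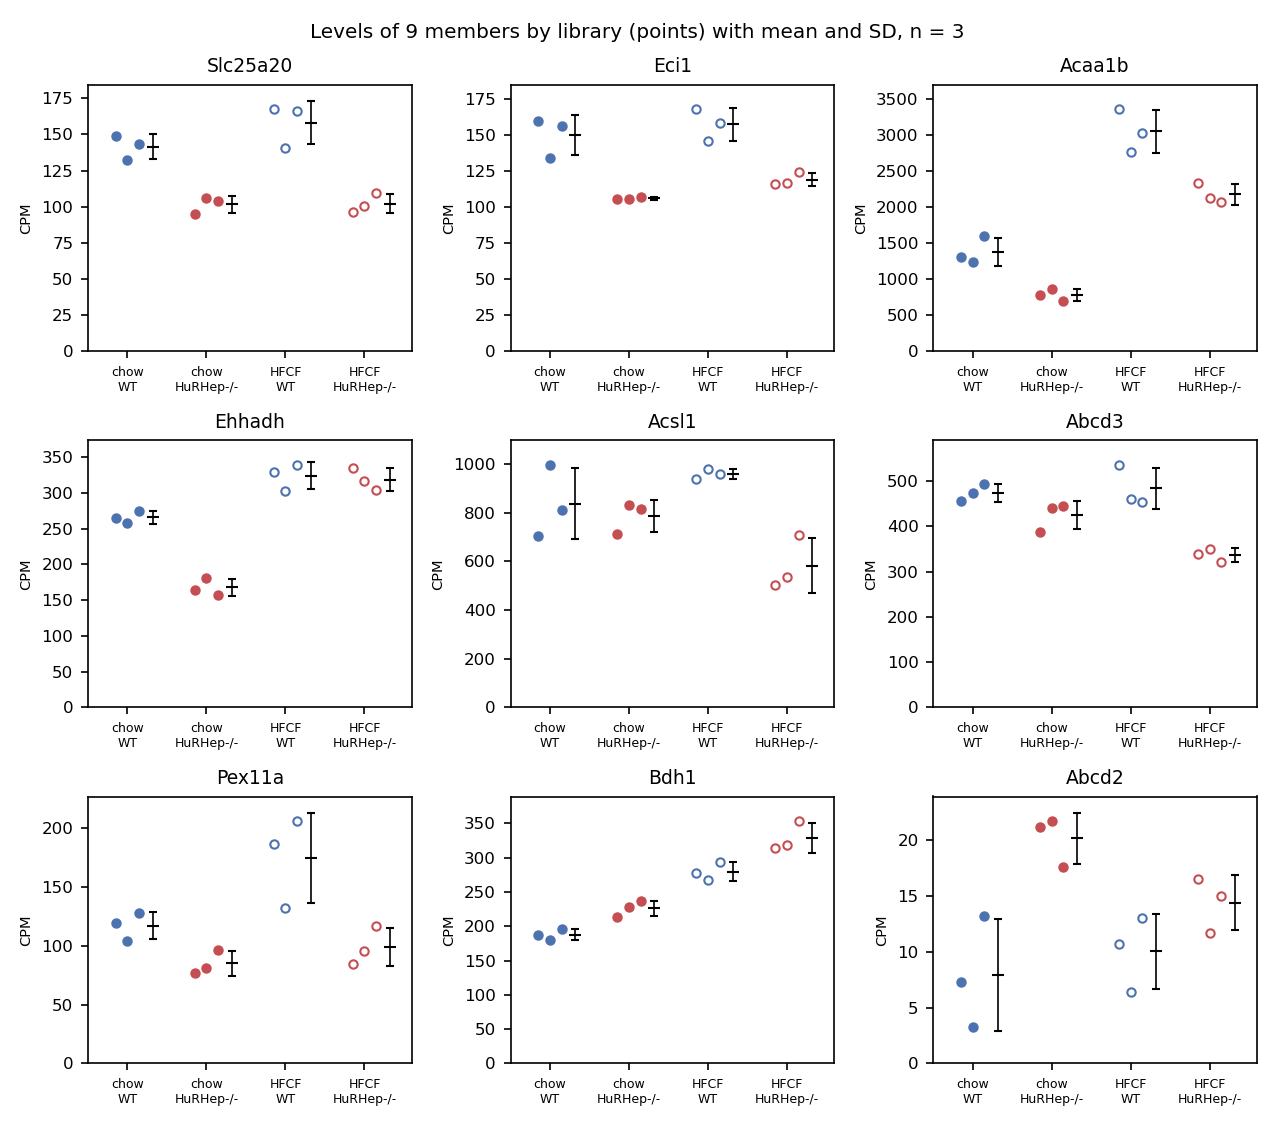
CPM (vertical axis, from 0) of 9 members in each of 12 libraries (points, filled for chow and open for HFCF) with mean and SD of 3 libraries per group. Slc25a20, Eci1, Acaa1b, Abcd3 and Pex11a are lower in the livers labelled HuRHep-/- than in WT of the same diet, Ehhadh separates the genotypes in chow alone and Acsl1 under HFCF alone, and Bdh1 is higher in labelled livers in both diets.

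Of the ketone body members, Bdh1, which encodes the enzyme that reduces acetoacetate to 3-hydroxybutyrate, was the second gene called higher. Its level was 187, 180.2 and 196 CPM in chow WT and 214, 227 and 237 CPM in labelled chow livers. Under HFCF the values were 278, 267 and 294 CPM in WT and 314, 318 and 354 CPM in labelled livers. The 4 groups did not overlap, and were ordered from chow WT through chow HuRHep-/- and HFCF WT to HFCF HuRHep-/-. Neither diet alone gave a call between genotypes (0.27 ± 0.065 and 0.22 ± 0.073 SE, limma adjusted p = 0.0575 and 0.109), and their average did (0.25 ± 0.049 SE, limma adjusted p = 0.00545). Acat1, the thiolase that joins acetyl-CoA units, overlapped between genotypes in both diets, at 448, 375 and 440.0 against 333, 362 and 412 CPM in chow and 468, 489 and 479.8 against 471, 463 and 488 CPM under HFCF.

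The diet comparisons asked how members differ between HFCF and chow livers of 1 genotype. Each diet was deposited as a table of its own, so diet and table cannot be told apart, and the chow WT libraries also serve as controls of the genotype comparison. In WT, 10 members were called higher and 1 lower, beside 11.3% and 12.8% of 14535 genes. The median over the members was 0.16, against 0.01 over all genes, and without chow WT replicate 2 it was 0.04, with 18 members positive in place of 23. In livers labelled HuRHep-/-, 7 were called higher and 7 lower, beside 19.7% and 19.1%, with a median of -0.05, against 0.002. That median was -0.002 without labelled HFCF replicate 1 and 0.0239 with upper-quartile scaling. The share of members called was thus above the background for rises in WT and close to it in both directions in the labelled livers. Upper-quartile scaling moved the split over all genes from 1642 higher and 1866 lower to 1958 and 1485 in WT (13 and 1 of the members), and from 2869 and 2780 to 3404 and 1956 in the labelled livers (9 and 4 of the members). Without chow WT replicate 2 the single fall in WT became 3, and without labelled HFCF HuRHep-/- replicate 3 it became 2. In the labelled livers the 7 falls became 4 without labelled chow replicate 3 or without labelled HFCF replicate 1.

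Among mitochondrial genes, Crat, the carnitine acetyltransferase, rose most with HFCF, from 32.7, 23.4 and 43.1 to 79.3, 64.6 and 88.1 CPM in WT and from 46.4, 48.5 and 30.3 to 73.5, 70.7 and 72.4 CPM in labelled livers. The log2 fold change was 1.26 ± 0.21 and 0.82 ± 0.21 (SE, limma adjusted p = 0.00249 and 0.0111). Hadh went from 302, 297 and 321 to 383, 390.1 and 428 CPM in WT and from 308, 317 and 309 to 381, 398 and 401 CPM in labelled livers, called both times (0.38 and 0.34). Acads was called higher in both genotypes with smaller changes (0.32 and 0.17). Cpt1a went from 357, 353 and 351 CPM in chow WT to the HFCF values given above and was called higher in WT alone (0.36 ± 0.080 SE, limma adjusted p = 0.00852), and the difference between genotypes in this response was not past the threshold (-0.42, limma adjusted p = 0.18). Acadvl (-0.26), Etfdh (-0.26) and Acsl1 (-0.45) were called lower in labelled livers, and Etfb was called lower in both genotypes (-0.34 in WT and -0.28 in labelled livers). In labelled livers, Acads and Acsl1 were past the threshold in 8, Etfb in 10 and Etfdh in 11 of 12 fits that left out a library. Here and in the next paragraph, the 12 include fits without a library of the other genotype. Such a library enters the estimate of spread but not the difference between diets, so these counts are not like those out of 6 given above. Without a call, Acadm was higher under HFCF than in chow with no overlap in WT (0.25) and in labelled livers (0.12), and Acaa2 was lower in both (-0.21 and -0.20). In labelled livers alone, Eci1 was higher (0.16) and Etfa (-0.11) and Echs1 (-0.09) were lower with no overlap, also without a call.

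Among peroxisomal genes, Acaa1b rose 2.22-fold in WT and 2.79-fold in labelled livers (log2 1.15 ± 0.12 and 1.48 ± 0.12 SE, limma adjusted p = 0.00025 and 4.45e-05). For Ehhadh the rise was 0.29 ± 0.071 in WT and 0.93 ± 0.071 in labelled livers (log2, SE, limma adjusted p = 0.0143 and 3.30e-05). Pex11a (0.56), Hsd17b4 (0.30) and Acaa1a (0.30) were called higher in WT, of which Pex11a was past the threshold in 8 and Acaa1a in 3 of 12 fits that left out a library. Called lower in labelled livers were Abcd3 (-0.33), Eci2 (-0.61) and Crot (-0.46), the last in 7 of 12 such fits. Ehhadh in WT was past the threshold in 11 of 12. Decr2 was higher in WT (0.21) and Abcd2 lower in labelled livers (-0.49) with no overlap between diets and no call. For Eci2 and Crot the WT livers were also lower under HFCF without overlap and without a call (-0.34 and -0.37, limma adjusted p = 0.0776 and 0.109). Both ketone genes were on the higher side, Bdh1 in each genotype (0.58 and 0.54) and Acat1 with a call in labelled livers (0.37 ± 0.088 SE, limma adjusted p = 0.00741).

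**Figure D5:**
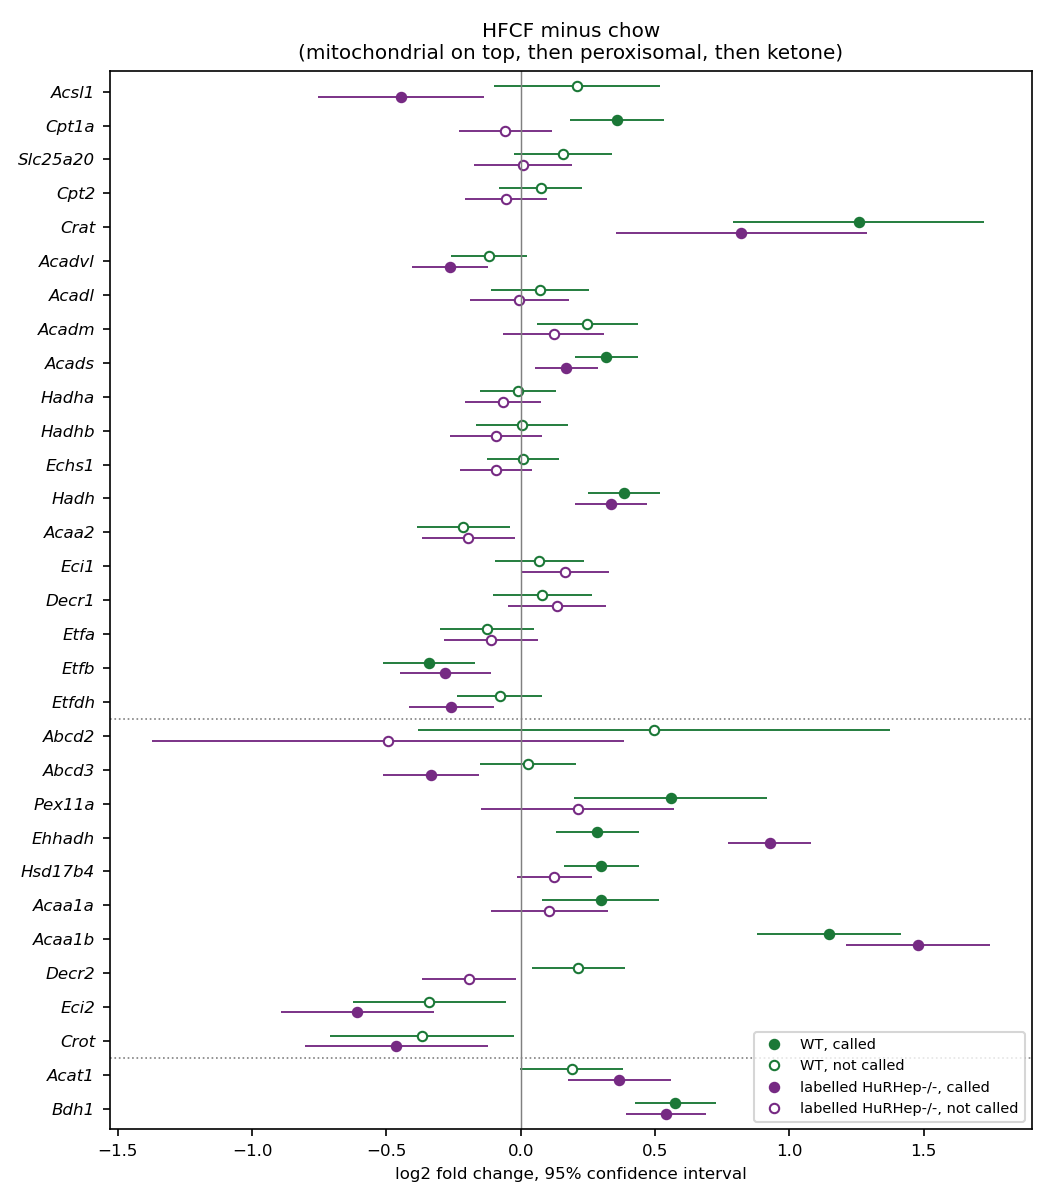
Log2 fold change of each of the 31 members (horizontal axis) under HFCF relative to chow, in WT (green) and in livers labelled HuRHep-/- (purple), from 1 fit of 12 libraries, with 95% confidence intervals and filled points where the adjusted p was at most 0.05. Acaa1b, Crat, Hadh and Bdh1 lie right of 0 in both genotypes, and 7 purple points against 1 green point are filled left of 0.

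Whether the genotypes differ in their response to diet was tested as an interaction. No gene of 14535 passed in either direction in the limma trend fit (0% higher and 0% lower), so no member did. At an unadjusted p below 0.05, 1 member was positive and 4 negative, beside 7.02% and 7.33% of all genes, which is no result about the members, and weighting by voom called 1 gene of all and 0 members. Ehhadh came nearest, with a difference of 0.64 ± 0.10 (SE, interval 0.42 to 0.86, limma adjusted p = 0.0578), and was lower in labelled livers on chow and overlapped WT under HFCF. Leaving out HFCF WT replicate 3 put 14 genes past the threshold on the higher side and 27 on the lower side, and 1 of them was a member. The 4 negative ones, named after their values were seen, were Cpt1a (-0.42), Decr2 (-0.41), Acsl1 (-0.66) and Abcd3 (-0.36). The median over the members was -0.12, against 0.005 over all genes.

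Other genes of the same pathways, a list of 39 all tested, gave 6 called lower and 1 higher between genotypes in chow (1.94% and 2.29% of all genes), 7 and 1 under HFCF (3.95% and 2.85%), and 14 and 5 on average (10.3% and 8.96%), with medians of -0.12, -0.16 and -0.16. Hsd17b10, a mitochondrial short-chain hydroxyacyl-CoA dehydrogenase, was 178, 180.2 and 198 CPM in chow WT and 115, 118 and 137 CPM in labelled chow livers, and 257, 257 and 227 against 138, 142 and 153 CPM under HFCF. It was called lower in both diets (-0.58 and -0.79, limma adjusted p = 0.0149 and 0.00856). Cd36, a fatty acid uptake receptor, had the largest called decrease of the list in chow (-0.97) and the largest called rise with HFCF (1.96 in WT and 2.81 in labelled livers). With diet, 11 of the list were called higher and 3 lower in WT, beside 11.3% and 12.8% of all genes, and 10 and 9 in labelled livers, near the 19.7% and 19.1% of all genes.

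HuR is known for binding stretches rich in A and U in 3′ untranslated regions, so those of the members were searched for ATTTA on the transcript strand, as DNA letters, and for the longer TTATTTATT, which contains it. Of 31 members, 14 held ATTTA (45.2%) and 0 held TTATTTATT, where 66.8% and 7.18% of 13254 tested genes did. The members' regions were shorter, with a median of 602 bases against 1001. Of 9 members called lower in either diet, 6 held ATTTA, with 1 each in Slc25a20, Ehhadh and Acaa1b, 2 each in Acsl1, Abcd3 and Pex11a, and 0 in Eci1, Decr2 and Eci2. Of the 15 called lower on average, 8 did. Of the pair called higher on average, Abcd2 held 10 in 3115 bases and Bdh1 held 2. Per kilobase Abcd2 (3.21) was close to Acaa1b (3.17), and Bdh1 had 1.11. The sites of the 3 genes with 1 each among those called in chow are printed with 10 bases on each side and the pentamer in capitals, at base 190, 256 and 117 of their regions.
Slc25a20 site: tgaaacttgaATTTAgaggatttcc
Ehhadh site: gcaaatatgtATTTActactgcaag
Acaa1b site: cagcactttaATTTAgaaaatgtaa
These are matches of letters in annotated transcripts, and binding was not measured in these libraries.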

How the data were processed

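Per the labels and the study's methods, total liver RNA was made into stranded libraries, and the authors mapped them with CLC Genomics Workbench, set to the reverse strand, against RefSeq GRCm38.p6. The authors deposited raw read counts per gene, 1 table per diet. The values are written as text with a comma between digits (21506 such values for chow and 23123 for HFCF) and were whole numbers once the commas were removed. They are thus whole read counts, but since the columns as deposited are not numeric, no test for counts was run. From the deposited counts, log2 CPM with a pseudocount of 0.5 and TMM factors (trims 0.3 and 0.05) were computed here and fitted in limma 3.58.1 (R 4.3.3) with a variance trend. Every fold change is on that scale, as labelled HuRHep-/- minus WT or HFCF minus chow. A gene was tested if its total reached 15 counts and at least 3 libraries had a CPM worth 10 counts at the median depth. P-values were adjusted by Benjamini-Hochberg over all genes tested, and called means an adjusted p of at most 0.05. Genotype effects within a diet used 6 libraries, and all other comparisons used 12 libraries and the genes in both tables. CPM values printed are on the scale of the 12 libraries.

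Sample groups came from the labels. The study counts single mice as biological replicates and gives 3 mice per group for the untreated livers. For the HFCF livers this is not given in the sources used here beyond the replicate number, so their p-values measure the spread between these libraries, which may be partly technical. No pair of libraries held identical counts. Intervals cover these libraries only.

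The members and lists, and the rule for the genes named, were chosen with earlier results of these data known. Members are named with values where called, and may be named where groups did not overlap or where a partner of the same complex or paralog pair was called, and the rest are given by range or count. Of the lists, at most 4 called genes were named. Exon lengths, shared 31-base words and 3′ untranslated regions (principal transcripts) were taken from the GENCODE annotation of GRCm38, and promoter windows from RefSeq GRCm38.p6. Alternatives were RLE and upper-quartile factors, no filter, a pseudocount of 2, voom weights, a replicate block, other sets of libraries in the fit, a fold change of 1.5 on top, and leaving out each library.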

Additional observations from a re-analysis of the deposited data

How the results depend on the processing

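Over all alternatives, 54 called changes of single members were recomputed, and 0 changed direction. A called change lies well away from 0, so a change of direction was unlikely beforehand. Of 937 recomputed values, 811 stayed past the threshold and 126 fell short of it. Upper-quartile factors gave 1 member called higher between genotypes in chow (0 in the values above), 5 lower under HFCF (8) and 4 lower with HFCF in labelled livers (7), where they also turned the median of the members from -0.055 to 0.0239. In chow, upper-quartile factors called 284 genes higher and 302 lower over all. The fit on 12 libraries gave 2 members called higher and 4 lower between genotypes in chow, where 468 and 480 of 14535 genes were called. Under HFCF that fit gave 0 members higher and 12 lower, where 710 and 909 genes were called. Asking for a fold change of 1.5 as well left 2 called lower in chow, 3 lower under HFCF, 1 higher and 2 lower on average, 2 higher and 0 lower with HFCF in WT, and 3 higher and 1 lower with HFCF in labelled livers. Over all genes that fold left 172 higher and 131 lower in chow, 307 and 210 under HFCF, 469 and 268 on average, 887 and 470 with HFCF in WT, and 2017 and 711 with HFCF in labelled livers. Deviations of same-numbered libraries correlated at -0.030, 0.109 and -0.0033 in chow and 0.0878, 0.188 and 0.0866 under HFCF, where each library correlated best with its own number, which was not so in chow, and the numbers were not taken to pair livers. With the replicate block, the members called lower with HFCF in WT went from 1 to 2, those between genotypes were 0 higher and 5 lower in chow, 0 and 8 under HFCF, and 2 and 12 on average, and no other count of members moved by over 1.5 times. Over all genes, the block gave 178 higher and 163 lower in chow and 638 and 703 under HFCF. It gave 1379 and 1472 on average, and 1700 and 1875 with HFCF in WT.

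Leaving out 1 library at a time gave 1 to 5 members called lower in chow and 0 to 8 under HFCF, with 0 called higher each time, while calls over all genes ran from 4 to 283 higher and 5 to 259 lower in chow and from 8 to 705 higher and 20 to 575 lower under HFCF. On average over diets it gave 12 to 15 lower and 1 to 2 higher, beside 1023 to 1510 lower and 790 to 1456 higher over all genes. With HFCF it gave 7 to 12 higher and 1 to 3 lower in WT, beside 910 to 1897 and 1069 to 2059 over all genes. In labelled livers it gave 6 to 7 higher and 4 to 7 lower with HFCF, beside 2033 to 3018 and 2004 to 2946 over all genes. For the difference between genotypes in the diet response it gave 0 to 1 higher and 0 lower, beside 0 to 14 and 0 to 27 over all genes. Without a filter, 5 of the 54 member changes fell short of the threshold, as did 5 with the replicate block. With RLE factors, a pseudocount of 2 or voom weights 1 each did. Upper-quartile factors left 7 short. Of the members, Abcd2 had the lowest depth, with 98 to 730 counts per library.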

Other observations

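In the citrate cycle, a list of 17 other mitochondrial enzymes, 1 gene was called lower and 1 higher between genotypes in chow and 1 lower under HFCF, with medians of -0.01 and -0.12, where 1.94% and 2.29% of all genes were called lower and higher in chow and 3.95% lower under HFCF. Dlst, the E2 subunit of 2-oxoglutarate dehydrogenase, was 176, 183 and 170.5 CPM in chow WT and 115, 113 and 130.0 CPM in labelled chow HuRHep-/- livers, and 191, 208 and 195 against 105, 101 and 94.9 CPM under HFCF. No labelled liver came near a WT liver (-0.56 ± 0.072 and -0.997 ± 0.066 SE, limma adjusted p = 0.0118 and 0.00236). Cs, citrate synthase, was higher in labelled chow livers (0.41 ± 0.075 SE, limma adjusted p = 0.0288). With HFCF, 7 of the 17 were called lower and 1 higher in labelled livers, beside 19.1% and 19.7% of all genes, and 1 lower and 2 higher in WT, beside 12.8% and 11.3%.

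Of 15 genes of the PPAR alpha axis, 2 were called lower between genotypes in chow, 1 under HFCF and 4 on average, beside 1.94%, 3.95% and 10.3% of all genes. The list went both ways, with 8 positive and 7 negative in chow (median 0.08), 6 and 9 under HFCF (-0.14) and 7 and 8 on average (-0.03). The largest positive change in chow, named after its value was seen, was that of Cyp4a31 (1.22 ± 0.37 SE, limma adjusted p = 0.109, not called). Acot1, an acyl-CoA thioesterase, was 67.5, 37.9 and 63.9 CPM in chow WT and 15.4, 24.3 and 23.9 CPM in labelled chow livers, and 67.6, 66.02 and 71.4 against 19.3, 21.9 and 46.2 CPM under HFCF. Vnn1, a pantetheinase, was 52.4, 44.5 and 55.2 against 25.1, 23.6 and 20.2 CPM in chow (-1.14 ± 0.11 SE, limma adjusted p = 0.00708). Under HFCF its values were 139.8, 78.5 and 133.1 CPM in WT and 59.6, 51.9 and 70.4 CPM in labelled livers, also without overlap. Ppara itself rose with HFCF in WT, from 31.2, 32.4 and 32.1 to 49.02, 52.5 and 43.1 CPM (0.59 ± 0.075 SE, limma adjusted p = 0.000653), and was not called between genotypes.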
